A study of Mus musculus with 32 samples.

Results

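The mitosis and spindle genes described here are 43 genes of the machinery that separates chromosomes and divides the cell. They were chosen by name from a list, with earlier results of these data known. Each was read from the array probe set that carried its current or an older symbol and had the highest mean signal over 32 arrays. A probe set with a single gene symbol was found for 42 of the 43 members, out of 18193 genes read in this way. For Ccnb1, the gene of cyclin B1, no such probe set was named, and its level was not analysed here. The arrays measured RNA of the mouse distal colon, 1 array per sample, and the groups were 10 treated wild-type (WT), 10 treated Myd88 knockout (KO), 6 untreated WT and 6 untreated KO samples, called biological repeats by the submitters. All mice were of the C57 BL6NCr strain, and the KO line (Myd88-/-) had been backcrossed to at least 98% of that background. Treated mice of 6 to 8 weeks received azoxymethane (AOM, a colon carcinogen of rodents) at 10 mg/kg into the peritoneum. Dextran sodium sulfate (DSS), which damages the epithelium of the colon, followed 1 week later at 2% of the drinking water for 3 days, and the mice were then killed. The treated colons carried the label colitis. No age, handling or vehicle was given for the untreated mice, so the regimen cannot be told apart from other differences between treated and untreated animals.

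In a dividing cell, cyclin-dependent kinase 1 with cyclins A and B starts mitosis, and the Aurora, Polo and Nek kinases organise the spindle. Kinetochores tie chromosomes to spindle microtubules, and the spindle assembly checkpoint holds the anaphase promoting complex in check until every chromosome is attached. That complex then marks cyclin B and securin for destruction, sister chromatids part, and the central spindle and its motors guide cytokinesis. In the colon, most dividing cells are transit-amplifying and stem cells in the lower part of the crypts. Most of these genes are transcribed in the later part of the cell cycle, so in a piece of tissue their RNA follows dividing cells. In such bulk RNA, fewer dividing cells and less of a transcript in each of them cannot be told apart.

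All values are log2 signals after quantile normalization, and a difference of 1 is a 2-fold difference. For groups, the lowest, the median and the highest array are given in that order. Differences come from a linear model of the 4 groups over all genes (limma), as log2 difference ± standard error, and a gene was called at an adjusted p under 0.05 over 18193 genes. In counts, genes that fell or rose are those called lower or higher by this rule. Arrays of a group correlated across genes with r between 0.935 and 0.985. Myd88, the targeted gene, ranged from 8.23 to 8.51 in untreated WT and from 7.53 to 7.81 in untreated KO samples. With treatment it ranged from 8.26 to 8.61 in WT and from 7.50 to 8.31 in KO samples, so the treated genotypes overlapped on this probe set. The treated KO repeats 3, 5, 7 and 10, at 8.313, 8.275, 8.295 and 8.259, lay inside the range of the WT arrays, and Myd88 was higher in treated than in untreated KO samples by 0.33 ± 0.10 (adjusted p = 0.0225). On these 4 arrays the probe set does not tell the genotypes apart, and which part of the gene was deleted was not stated. Myd88 was lower in KO mice in both comparisons, with log2 differences of -0.73 ± 0.11 between untreated groups (adjusted p = 0.000916) and -0.46 ± 0.09 between treated groups (adjusted p = 0.00105).

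Treated mice of both genotypes had less RNA of the mitosis and spindle genes than untreated mice of the same genotype. In WT mice 19 of the 42 measured members fell after AOM and DSS and 0 rose, where 1.24% of all genes fell and 0.599% rose. The median difference of the members was -0.72 against 0 over all genes, and 2 members, Ube2c and Cdk1, fell at least 2-fold. In KO mice 35 of 42 fell and 0 rose, where 10.1% of all genes fell and 8.7% rose. Their median difference was -0.88 against 0 over all genes, and 14 members fell at least 2-fold. All 42 members, called or not, had a lower mean after treatment in both genotypes. At an unadjusted p under 0.05, 39 members were lower in each response. Of all 18193 genes, 2711 in WT and 5671 in KO mice passed this cutoff in either direction. Without the 4 treated KO arrays whose Myd88 signal lay inside the WT range, 33 members fell in KO mice at a median of -0.92, and 21 fell in WT mice. For this fit and the alternative fits below, the share of all genes called was not counted.

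**Figure D1:**
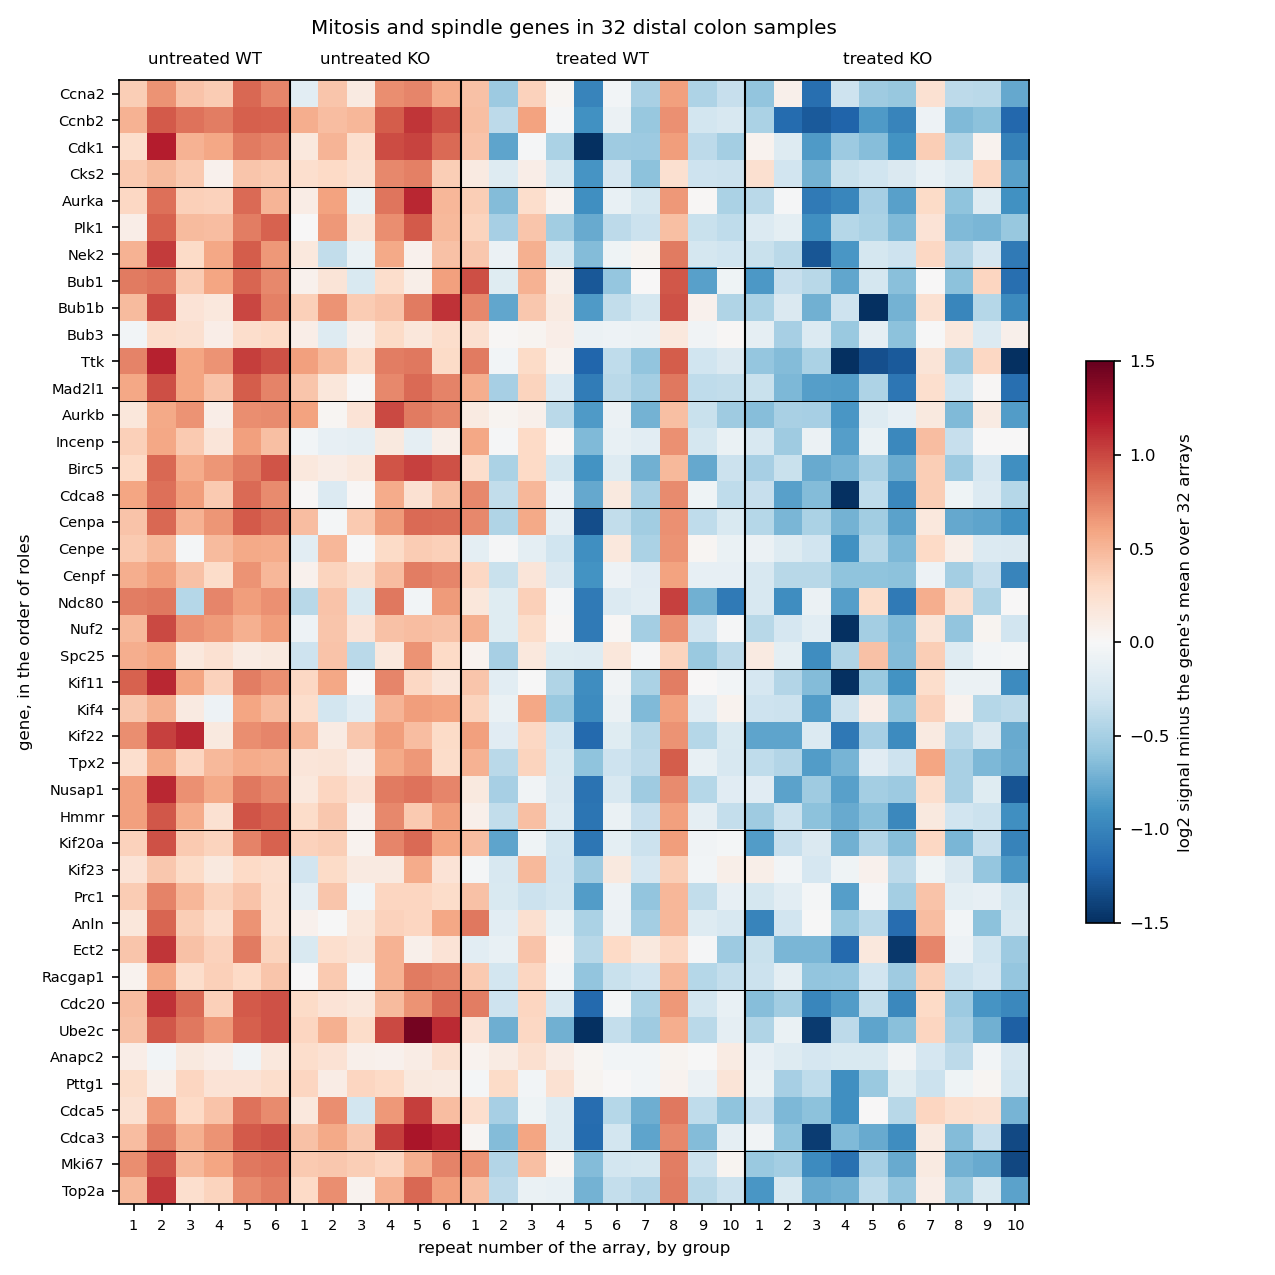
Log2 signal of 42 members (rows, in the order of their roles, with lines between roles) on 32 arrays (columns, by group and repeat number), as the difference from the gene's mean over all arrays. Untreated columns are mostly red and treated columns mostly blue. Treated WT repeats 1, 3 and 8 and treated KO repeat 7 look more like untreated columns, and the rows of Bub3, Anapc2 and Pttg1 are pale.

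In WT mice 0 of 42 members had every treated array below every untreated array, where 0.896% of all genes did. Treated WT repeats 8, 1 and 3 reached the untreated WT range for 40, 31 and 23 members, and each other treated WT array for 1 to 5. In KO mice the groups did not overlap for 7 of 42 members (Ccnb2, Bub1b, Cenpf, Anapc2, Pttg1, Cdca3 and Mki67), where this held for 0.973% of all genes. Treated KO repeat 7 reached the untreated KO range for 33 members, and each other treated KO array for 1 to 10. The calls of both genotypes shared 18 members, 17 members were called in KO mice alone and Prc1 in WT mice alone. Bub1, Incenp, Ndc80, Spc25, Kif4 and Ect2 were called in neither. These counts do not show that the responses differ: the difference of the responses, tested for each gene, passed for Anapc2 alone. The WT calls depended on the fit. Birc5, Ccnb2, Hmmr and Nusap1 were called in all 46 alternative fits, and Cks2, Aurkb, Cenpa and Mki67 in 28 of 46. In KO mice 17 members were called in all 46, and the calls kept least often were those of Cenpe (18 of 46), Kif23 (30), Nek2 (34) and Cdca8 (35). The WT count of 19 also rested on single arrays. It was 10, 10, 9, 11, 8 and 10 without treated WT repeats 2, 4, 5, 6, 7 and 9, and 10, 5, 8, 5 and 4 without untreated WT repeats 1, 2, 3, 5 and 6. The KO count stayed between 29 and 38 whichever array was left out.

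**Figure D2:**
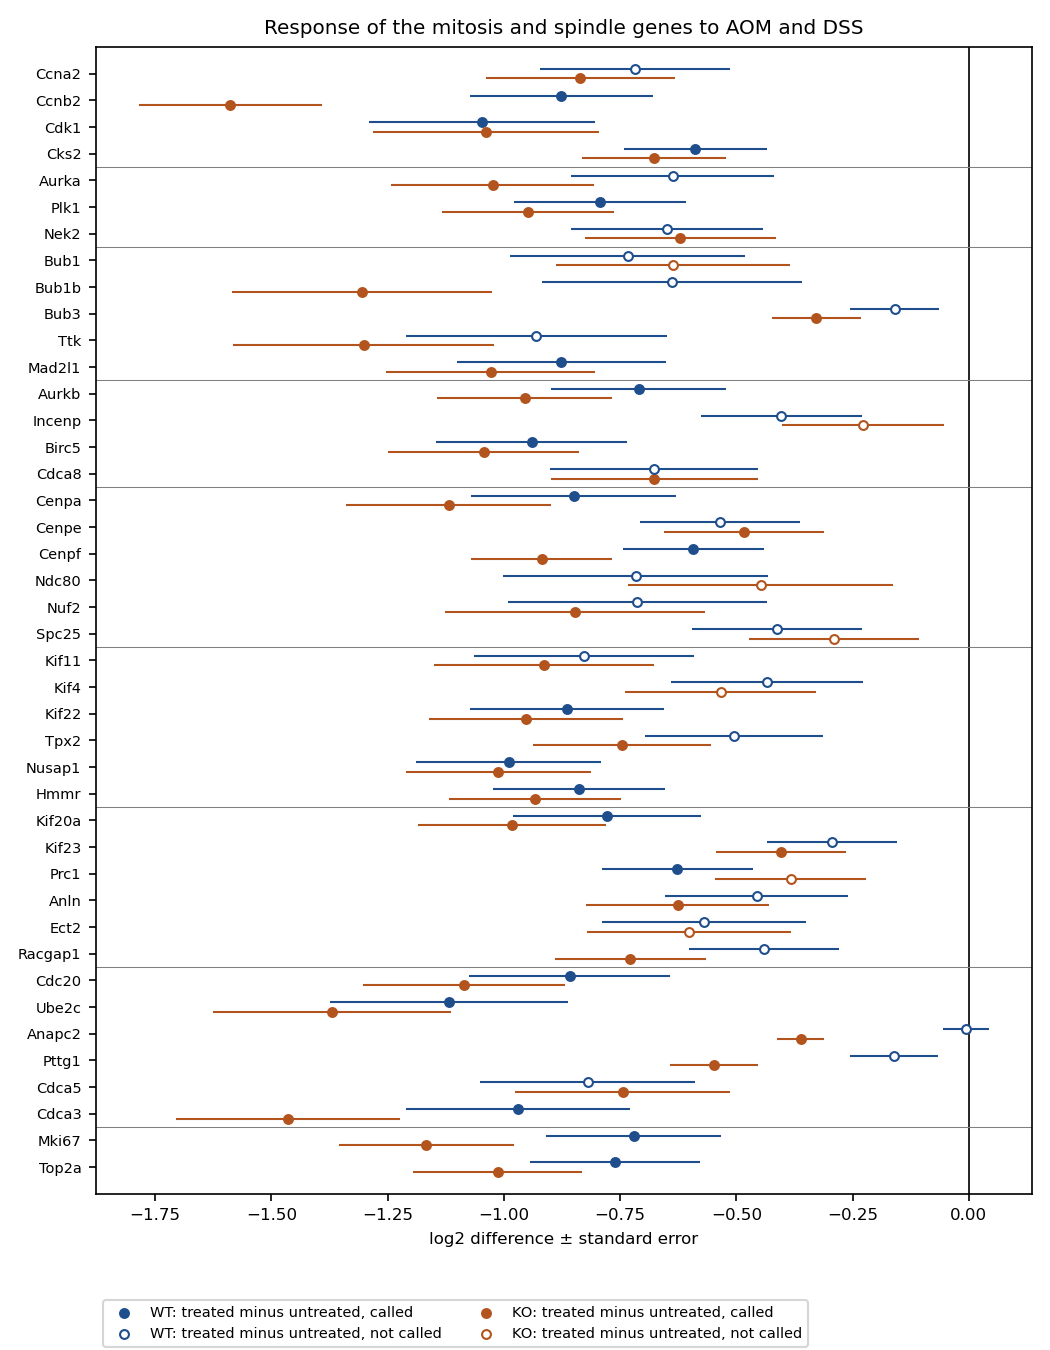
Log2 difference between treated and untreated samples (points) with its standard error (lines) for 42 members in WT (blue) and KO (brown) mice, ordered by role. Filled points were called at an adjusted p under 0.05. Every point lies at or left of 0, and Anapc2 and Pttg1 stand nearest to 0 in WT mice together with Bub3.

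Cyclins, Cdk1 and its partner fell together in KO mice (4 of 4 measured members), and 3 of 4 fell in WT mice. Ccnb2 encodes cyclin B2, which activates Cdk1 at the entry into mitosis. Its signal was 8.27, 8.59 and 8.67 in untreated WT and 6.84, 7.58 and 8.43 in treated WT samples, and 8.20, 8.48 and 8.82 in untreated KO and 6.48, 6.82 and 7.67 in treated KO samples. In WT mice the highest treated arrays reached into the untreated range, and in KO mice the groups did not overlap. Ccnb2 fell by 0.88 ± 0.20 (1.84-fold, adjusted p = 0.0179) in WT and by 1.59 ± 0.20 (3.01-fold, adjusted p = 5.3e-06) in KO mice. Cdk1, the kinase itself, was at 7.55, 7.94 and 8.47 without and 5.78, 6.80 and 7.92 with treatment in WT, and at 7.45, 7.97 and 8.31 and 6.28, 6.79 and 7.66 in KO samples. In WT mice 2 treated arrays and in KO mice 1 reached the lower part of the untreated range. Cdk1 fell by 1.05 ± 0.24 (2.07-fold, adjusted p = 0.0216) in WT and by 1.04 ± 0.24 (2.06-fold, adjusted p = 0.00305) in KO mice, nearly the same amount. Cks2, a small protein that binds Cdk1, lay at 9.30, 9.63 and 9.71 and, after treatment, at 8.35, 9.00 and 9.48 in WT mice, and at 9.46, 9.56 and 9.99 and then 8.42, 8.98 and 9.54 in KO mice. In WT mice 3 treated arrays and in KO mice 2 reached the untreated range, and it fell by 0.59 ± 0.15 (1.5-fold, adjusted p = 0.0408) and by 0.68 ± 0.15 (1.6-fold, adjusted p = 0.00244). Ccna2, which encodes cyclin A2, fell in KO mice only by the threshold, at -0.72 ± 0.20 (adjusted p = 0.065) in WT and -0.84 ± 0.20 (adjusted p = 0.00427) in KO mice.

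**Figure D3:**
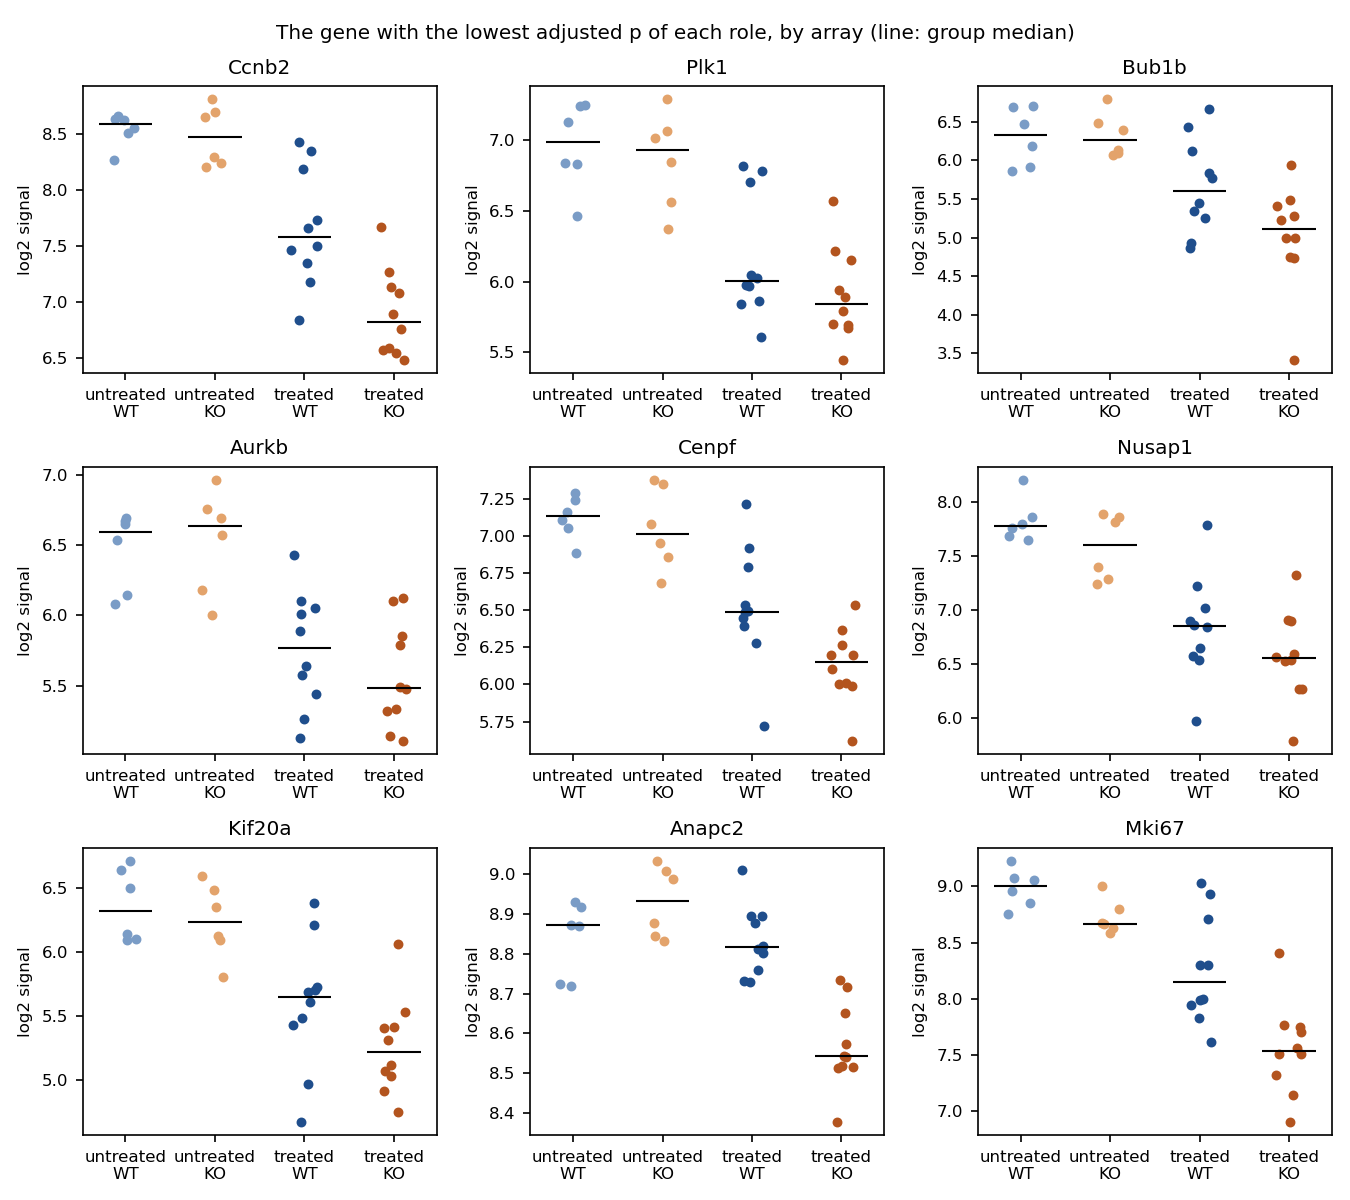
Log2 signal on each array (points) by group, with the group median (line), for the member of each role with the lowest adjusted p in a response. Each panel has its own axis. The treated KO points lie below all untreated KO points for Ccnb2, Bub1b, Cenpf, Anapc2 and Mki67, and the treated WT points of Anapc2 lie among the untreated ones.

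Mitotic kinases fell in 3 of 3 cases in KO mice and in 1 of 3 in WT mice. Plk1, the Polo kinase that acts at centrosomes, kinetochores and the central spindle, was at 6.46, 6.98 and 7.24 in untreated and 5.61, 6.00 and 6.81 in treated WT samples. In KO samples it was at 6.37, 6.93 and 7.29 and 5.45, 5.84 and 6.57. Most treated arrays lay below the untreated range, and the highest reached into it in both genotypes. Plk1 fell by 0.79 ± 0.18 (1.73-fold, adjusted p = 0.022) in WT and by 0.95 ± 0.18 (1.93-fold, adjusted p = 0.000656) in KO mice. Aurka, the Aurora kinase of spindle poles, went from 6.67, 6.80 and 7.22 to 5.45, 6.31 and 7.02 in WT and from 6.27, 6.91 and 7.49 to 5.31, 5.82 and 6.65 in KO samples. In each genotype 2 of 10 treated arrays reached the untreated range, and the differences were -0.64 ± 0.22 (adjusted p = 0.141) and -1.02 ± 0.22 (adjusted p = 0.00144). Nek2, a kinase that splits the centrosomes, was at 7.10, 7.42 and 7.86 and 6.16, 6.74 and 7.59 in WT and at 6.44, 6.92 and 7.38 and 5.52, 6.44 and 7.12 in KO samples. In WT mice 3 and in KO mice 5 of 10 treated arrays lay in the untreated range. The differences were -0.65 ± 0.21 (adjusted p = 0.103) in WT and -0.62 ± 0.21 (adjusted p = 0.0334) in KO mice.

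Checkpoint genes fell in 4 of 5 cases in KO mice and in 1 of 5 in WT mice. Bub1b encodes BubR1, a subunit of the complex that inhibits the anaphase promoting complex. It ranged over 5.86, 6.33 and 6.71 in untreated and 4.86, 5.61 and 6.67 in treated WT samples, and over 6.07, 6.27 and 6.80 and 3.41, 5.12 and 5.94 in KO samples. The KO groups did not overlap, while 3 of 10 treated WT arrays lay in the untreated range. Bub1b was at -0.64 ± 0.28 (adjusted p = 0.268) in WT mice and fell by 1.31 ± 0.28 (2.47-fold, adjusted p = 0.00149) in KO mice. Ttk, the Mps1 kinase that starts checkpoint signalling, was at 5.64, 5.90 and 6.20 and 3.85, 4.92 and 5.96 in WT, and at 5.31, 5.59 and 5.84 and 3.32, 4.43 and 5.36 in KO samples. The floor of the scale, 3.322, was reached on 1 treated KO array, so the lower end of that group is a bound. Ttk was at -0.93 ± 0.28 (adjusted p = 0.083) in WT mice and fell by 1.30 ± 0.28 (2.47-fold, adjusted p = 0.00158) in KO mice. Mad2l1, which encodes the checkpoint protein Mad2, was at 8.12, 8.36 and 8.66 and 6.64, 7.32 and 8.48 in WT, and at 7.71, 8.26 and 8.54 and 6.56, 7.12 and 7.94 in KO samples. It fell in both genotypes, by 0.88 ± 0.22 (1.84-fold, adjusted p = 0.0361) and by 1.03 ± 0.22 (2.04-fold, adjusted p = 0.00177), with some overlap of the groups. Bub1, a kinetochore kinase, was not called: it ranged over 5.97, 6.34 and 6.46 and 4.32, 5.56 and 6.55 in WT and over 5.36, 5.72 and 6.21 and 4.45, 5.07 and 5.91 in KO samples. Its differences of -0.73 ± 0.25 (adjusted p = 0.142) and -0.64 ± 0.25 (adjusted p = 0.0769) were of the same order as those of called members, with a wide spread among treated WT arrays. Bub3, which carries Bub1 and BubR1 to kinetochores, differed least of the checkpoint genes, at -0.16 ± 0.10 (adjusted p = 0.455) and -0.33 ± 0.10 (adjusted p = 0.0151).

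The chromosomal passenger complex corrects faulty attachments and later marks the central spindle. Of its 4 genes 2 fell in WT and 3 in KO mice, and Incenp stood apart from its partners. Aurkb, the kinase of the complex, was at 6.08, 6.60 and 6.69 and 5.13, 5.76 and 6.43 in WT, and at 6.00, 6.63 and 6.96 and 5.11, 5.49 and 6.12 in KO samples. The groups overlapped at a few arrays in each genotype, and Aurkb fell by 0.71 ± 0.19 (1.64-fold, adjusted p = 0.0429) and by 0.96 ± 0.19 (1.94-fold, adjusted p = 0.000711). Birc5, or survivin, was at 7.48, 7.91 and 8.13 and 6.29, 6.90 and 7.68 in WT, and at 7.30, 7.74 and 8.21 and 6.26, 6.66 and 7.56 in KO samples. Only the upper treated arrays reached the untreated range, and it fell by 0.94 ± 0.21 (1.92-fold, adjusted p = 0.0147) and by 1.04 ± 0.21 (2.06-fold, adjusted p = 0.00073). Cdca8, or borealin, which links the complex to chromosomes, ranged over 7.55, 7.82 and 8.01 and 6.38, 7.08 and 7.87 in WT, and over 6.94, 7.27 and 7.71 and 5.65, 6.75 and 7.52 in KO samples. Its differences were alike, -0.68 ± 0.22 (adjusted p = 0.12) and -0.68 ± 0.22 (adjusted p = 0.0322), and passed in KO mice alone. Incenp, the scaffold, was at 8.69, 8.93 and 9.12 and 7.85, 8.45 and 9.19 in WT and at 8.37, 8.43 and 8.65 and 7.54, 8.33 and 8.97 in KO samples. Treated arrays spread to both sides of the untreated ones in each genotype, and the differences were -0.40 ± 0.17 (adjusted p = 0.26) and -0.23 ± 0.17 (adjusted p = 0.406). Of 5 Incenp probe sets 0 were called in either response.

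Kinetochore and centromere genes fell in 2 of 6 cases in WT and in 4 of 6 in KO mice. Cenpf, a large kinetochore protein, was at 6.88, 7.13 and 7.29 and 5.72, 6.49 and 7.22 in WT, and at 6.68, 7.01 and 7.37 and 5.62, 6.15 and 6.54 in KO samples. The KO groups did not overlap and the WT groups did. Cenpf fell by 0.59 ± 0.15 (1.51-fold, adjusted p = 0.036) in WT and by 0.92 ± 0.15 (1.89-fold, adjusted p = 0.000134) in KO mice. Cenpa, the histone H3 variant that defines centromeres, was at 7.28, 7.61 and 7.78 and 5.52, 6.56 and 7.57 in WT, and at 6.83, 7.41 and 7.70 and 5.94, 6.15 and 7.01 in KO samples. A single treated KO array, repeat 7, crossed into the untreated range, and Cenpa fell by 0.85 ± 0.22 (1.8-fold, adjusted p = 0.0389) and by 1.12 ± 0.22 (2.17-fold, adjusted p = 0.000723). Nuf2, a subunit of the Ndc80 complex that grips microtubules, was at 6.49, 6.64 and 6.99 and 4.95, 6.00 and 6.69 in WT, and at 5.93, 6.43 and 6.47 and 3.32, 5.65 and 6.20 in KO samples. The lowest treated KO array was on the floor, and the differences were -0.71 ± 0.28 (adjusted p = 0.205) and -0.85 ± 0.28 (adjusted p = 0.032). Of the other subunits of that complex, Spc25 was at 6.53, 6.61 and 7.01 and 5.85, 6.31 and 6.74 in WT and at 6.01, 6.64 and 7.09 and 5.48, 6.32 and 6.85 in KO samples, where 3 treated WT and 7 treated KO arrays lay in the untreated range. Its differences were -0.41 ± 0.18 (adjusted p = 0.273) and -0.29 ± 0.18 (adjusted p = 0.296), and those of Ndc80 were -0.72 ± 0.28 (adjusted p = 0.211) and -0.45 ± 0.28 (adjusted p = 0.3). Ndc80 was on the floor on 2 treated WT arrays and 1 treated KO array, which limits how low its group means can go. Cenpe, the kinetochore motor, was at -0.54 ± 0.17 (adjusted p = 0.11) and -0.48 ± 0.17 (adjusted p = 0.0475), and its KO call was lost in most alternative fits.

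Spindle motors and microtubule proteins fell in 3 of 6 cases in WT and in 5 of 6 in KO mice. Nusap1, which bundles spindle microtubules, had the lowest adjusted p of all members in WT mice. It was at 7.65, 7.78 and 8.21 and 5.97, 6.86 and 7.79 in WT, and at 7.24, 7.61 and 7.89 and 5.79, 6.56 and 7.33 in KO samples. In each genotype only the highest treated array reached into the untreated range, and Nusap1 fell by 0.99 ± 0.20 (1.99-fold, adjusted p = 0.00854) and by 1.01 ± 0.20 (2.02-fold, adjusted p = 0.000707). Hmmr, a spindle protein also known as a hyaluronan receptor, was at 6.65, 7.17 and 7.37 and 5.33, 6.26 and 7.04 in WT, and at 6.49, 6.82 and 7.14 and 5.46, 5.85 and 6.57 in KO samples. It fell by 0.84 ± 0.18 (1.79-fold, adjusted p = 0.0156) and by 0.93 ± 0.18 (1.91-fold, adjusted p = 0.000753), with little overlap. Kif22, a motor that pushes chromosome arms to the spindle centre, was at 8.54, 9.11 and 9.52 and 7.22, 8.19 and 9.06 in WT, and at 8.52, 8.82 and 9.01 and 7.32, 7.76 and 8.53 in KO samples. The KO groups met at their edges, and Kif22 fell by 0.86 ± 0.21 (1.82-fold, adjusted p = 0.0259) and by 0.95 ± 0.21 (1.94-fold, adjusted p = 0.00181). Kif4, a chromosome-bound motor, was at 5.87, 6.39 and 6.54 and 5.01, 5.86 and 6.56 in WT, and at 5.68, 6.34 and 6.58 and 5.11, 5.63 and 6.30 in KO samples. Its groups overlapped in both genotypes, and its differences, -0.43 ± 0.21 (adjusted p = 0.316) and -0.53 ± 0.21 (adjusted p = 0.0692), did not pass. Kif11, the motor that separates the spindle poles, was at -0.83 ± 0.24 (adjusted p = 0.0675) and -0.91 ± 0.24 (adjusted p = 0.00691), and Tpx2, which activates Aurora A on the spindle, at -0.51 ± 0.19 (adjusted p = 0.188) and -0.75 ± 0.19 (adjusted p = 0.00641).

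Genes of the central spindle and cytokinesis fell in 2 of 6 cases in WT and in 4 of 6 in KO mice. Kif20a, a motor of the central spindle, was at 6.09, 6.32 and 6.71 and 4.67, 5.65 and 6.38 in WT, and at 5.81, 6.24 and 6.60 and 4.75, 5.22 and 6.06 in KO samples. The highest treated arrays reached the untreated range in each genotype, and Kif20a fell by 0.78 ± 0.20 (1.72-fold, adjusted p = 0.0389) and by 0.98 ± 0.20 (1.98-fold, adjusted p = 0.00106). Racgap1, a subunit of centralspindlin, was at 6.62, 6.90 and 7.15 and 5.98, 6.29 and 7.07 in WT, and at 6.55, 7.03 and 7.35 and 5.98, 6.25 and 6.93 in KO samples. It was at -0.44 ± 0.16 (adjusted p = 0.171) in WT mice, where the groups overlapped, and fell by 0.73 ± 0.16 (1.66-fold, adjusted p = 0.002) in KO mice. Anln, or anillin, a scaffold of the contractile ring, was at 7.21, 7.34 and 7.91 and 6.52, 6.91 and 7.82 in WT, and at 7.03, 7.28 and 7.62 and 5.89, 6.69 and 7.50 in KO samples. Treated arrays overlapped the untreated ones in both genotypes, and the differences were -0.46 ± 0.20 (adjusted p = 0.261) and -0.63 ± 0.20 (adjusted p = 0.0242). Ect2, the exchange factor that activates RhoA at the cleavage plane, was at 8.10, 8.18 and 8.83 and 7.21, 7.76 and 8.18 in WT, and at 7.53, 7.95 and 8.28 and 6.30, 7.32 and 8.48 in KO samples. The treated KO arrays spread widest, over the whole untreated KO range and below it, and neither difference passed, at -0.57 ± 0.22 (adjusted p = 0.197) and -0.60 ± 0.22 (adjusted p = 0.0529). Prc1, which bundles antiparallel microtubules of the central spindle, was the member called in WT mice alone, at -0.63 ± 0.16 (adjusted p = 0.0389) against -0.38 ± 0.16 (adjusted p = 0.1) in KO mice. The difference of its responses, 0.24 ± 0.23 (adjusted p = 0.737), did not pass. Kif23, the motor of centralspindlin, was at -0.29 ± 0.14 (adjusted p = 0.315) and -0.40 ± 0.14 (adjusted p = 0.0419).

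In WT mice the group of the anaphase promoting complex and cohesion held both the largest and the smallest difference of the 42 members, those of Ube2c and Anapc2. All 6 of its genes fell in KO mice and 3 of 6 fell in WT mice. Ube2c, the ubiquitin-conjugating enzyme of the complex, fell by 1.12 ± 0.26 (2.17-fold, adjusted p = 0.0201) in WT and by 1.37 ± 0.26 (2.58-fold, adjusted p = 0.00044) in KO mice, and Cdc20, its activator in mitosis, by 0.86 ± 0.22 (1.81-fold, adjusted p = 0.0333) and by 1.09 ± 0.22 (2.12-fold, adjusted p = 0.000816). Cdca3, a trigger of mitotic entry that is itself a target of the complex, was at 7.99, 8.24 and 8.48 and 6.37, 7.29 and 8.25 in WT, and at 7.93, 8.33 and 8.75 and 6.11, 6.87 and 7.66 in KO samples. The KO groups did not overlap, and Cdca3 fell by 0.97 ± 0.24 (1.96-fold, adjusted p = 0.0311) and by 1.46 ± 0.24 (2.76-fold, adjusted p = 0.000131). Pttg1 encodes securin, which holds separase inactive until anaphase. It was at 10.83, 10.99 and 11.08 and 10.67, 10.78 and 11.05 in WT, and at 10.87, 10.98 and 11.08 and 9.84, 10.45 and 10.78 in KO samples. Every treated KO array lay below every untreated KO array, while treated WT arrays overlapped the untreated ones. Pttg1 was at -0.16 ± 0.09 (adjusted p = 0.438) in WT mice and fell by 0.55 ± 0.09 (1.46-fold, adjusted p = 0.000188) in KO mice. Anapc2 encodes the cullin subunit of the complex's catalytic core and is not known as a gene of dividing cells alone. It was at 8.72, 8.87 and 8.93 and 8.73, 8.82 and 9.01 in WT, and at 8.83, 8.93 and 9.03 and 8.38, 8.54 and 8.73 in KO samples. Treated WT arrays overlapped the untreated ones throughout, and treated KO arrays lay below all untreated KO arrays. The difference was -0.01 ± 0.05 (adjusted p = 1) in WT mice, and Anapc2 fell by 0.36 ± 0.05 (1.28-fold, adjusted p = 1.8e-05) in KO mice. Cdca5, or sororin, which protects cohesin, was at -0.82 ± 0.23 (adjusted p = 0.0623) and -0.74 ± 0.23 (adjusted p = 0.0226).

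Mki67 and Top2a fell in both genotypes. Mki67 encodes Ki-67, a coat protein of mitotic chromosomes that is used as a mark of cycling cells. It was at 8.75, 9.01 and 9.23 in untreated and 7.62, 8.15 and 9.03 in treated WT samples, and at 8.58, 8.67 and 9.01 and 6.91, 7.54 and 8.41 in KO samples. The KO groups did not overlap, and in WT mice the highest treated arrays lay inside the untreated range. Mki67 fell by 0.72 ± 0.19 (1.65-fold, adjusted p = 0.0405) in WT and by 1.17 ± 0.19 (2.24-fold, adjusted p = 0.000108) in KO mice. Top2a, the topoisomerase that disentangles sister chromatids, was at 7.98, 8.32 and 8.78 and 7.02, 7.39 and 8.51 in WT, and at 7.78, 8.30 and 8.59 and 6.86, 7.15 and 7.83 in KO samples. It fell by 0.76 ± 0.18 (1.69-fold, adjusted p = 0.0251) and by 1.01 ± 0.18 (2.02-fold, adjusted p = 0.000307), with 2 treated WT arrays and 1 treated KO array in the untreated range.

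Without treatment the genotypes differed little in these genes. KO minus WT was called for 0 of 42 members by limma, where 0.077% of all genes were called lower and 0.0385% higher. An unadjusted p under 0.05 was reached by 2 of 42 members (Nek2 and Incenp). This was a smaller share than the 1304 of 18193 genes in either direction. The median difference was -0.14, or -0.08 without untreated KO repeat 3, from -0.54 ± 0.23 (adjusted p = 0.645) for Nek2 to 0.09 ± 0.06 (adjusted p = 0.786) for Anapc2. For Incenp and Nuf2 every untreated KO array lay below every untreated WT array, 2 of 42 members where 0.61% of all genes did so. Incenp was at -0.46 ± 0.19 (adjusted p = 0.632) and Nuf2 at -0.35 ± 0.31 (adjusted p = 0.904).

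With treatment 6 of 42 members were called lower in KO than in WT mice and 0 higher, where 6.58% of all genes were called lower and 6.24% higher. The median difference was -0.35 with 41 of 42 members negative, and -0.18 with the epithelium covariate. These comparisons use the same treated arrays as the responses above and are not independent of them. Ccnb2 was lower by 0.77 ± 0.17 (1.71-fold, adjusted p = 0.00349), Mki67 by 0.71 ± 0.16 (1.63-fold, adjusted p = 0.00474), Pttg1 by 0.39 ± 0.08 (1.31-fold, adjusted p = 0.00223), Anapc2 by 0.26 ± 0.04 (1.2-fold, adjusted p = 0.000274), Cenpf by 0.40 ± 0.13 (1.32-fold, adjusted p = 0.0418) and Cdc20 by 0.56 ± 0.19 (1.47-fold, adjusted p = 0.0483). For none of these 6 did the treated genotypes part without overlap, which 0.132% of all genes did. Cdc20 was called in 10 of 46 alternative fits and Cenpf in 26. Without treated WT repeat 5 the count rose to 13, and without treated KO repeat 7 it also rose to 13. With the epithelium list mean as a covariate it was 1, and with each array centred on its median 3. At the other end Cdk1 (-0.04 ± 0.21, adjusted p = 0.966), Spc25 (-0.04 ± 0.16, adjusted p = 0.949), Cks2 (-0.01 ± 0.13, adjusted p = 1), Prc1 (-0.00 ± 0.14, adjusted p = 1) and Cdca5 (0.01 ± 0.20, adjusted p = 1) showed the smallest differences.

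KO minus WT response was negative for 32 of 42 members, at a median of -0.14. This median ran from -0.21 without treated WT repeat 5 to -0.06 without treated WT repeat 8, and was -0.05 with the epithelium covariate. The difference passed for 1 member, Anapc2, at -0.36 ± 0.07 (adjusted p = 0.0478), where 0.0055% of all genes were called lower. Anapc2 was the only gene of the 18193 called lower in this comparison, and 9, or 0.0495%, were called higher. The members were chosen with earlier results of these data known, so this 1 call does not speak for the list as a whole. At an unadjusted p under 0.05 there were 3 of 42 members, a smaller share than the 2131 of 18193 genes in either direction. Beside Anapc2 they were Ccnb2 (-0.71 ± 0.28, adjusted p = 0.306) and Pttg1 (-0.39 ± 0.13, adjusted p = 0.225). The Anapc2 call was kept in 12 of 45 alternative fits, with differences between -0.38 and -0.25. It was kept in 7 of 32 fits that left out an array, namely those without treated WT repeat 6, 7 or 9, without treated KO repeat 6, 8 or 9 or without untreated KO repeat 4, and was lost without any other array. Without treated KO repeats 3, 5, 7 and 10 its adjusted p was 0.138. The largest adjusted p among all alternatives was 0.442.

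The members moved as a block from array to array, and treated WT samples were the least alike. The mean log2 signal of the 42 members ran from 7.45 to 7.84 over untreated WT arrays (median 7.59), from 7.17 to 7.67 over untreated KO arrays (7.48), from 6.21 to 7.67 over treated WT arrays (6.86) and from 6.24 to 7.28 over treated KO arrays (6.65). Within treated WT, repeat 8 had the highest mean, 7.67, and was the highest array of its group for 32 of 42 members. Repeat 5 had the lowest, 6.21, and was lowest for 37 of 42. Repeats 1 and 3 stood at 7.43 and 7.32, and the other 6 arrays between 6.68 and 6.90. Within treated KO, repeat 7 stood at 7.28 and was highest for 34 of 42 members, and the other 9 arrays lay between 6.24 and 6.80. Repeat 7 is among the 4 treated KO arrays with Myd88 in the WT range, and the members' means on the other 3, repeats 3, 5 and 10, were 6.43, 6.65 and 6.32. Anapc2 and Pttg1 did not follow these arrays: on treated WT repeats 5 and 8 Anapc2 was at 8.80 and 8.81 and Pttg1 at 10.80 and 10.81. In this mean repeat 8 alone of the treated WT arrays reached the untreated WT range, and repeat 7 alone of the treated KO arrays the untreated KO range. Xist, a transcript of female cells, was high on 5 of 10 arrays in each treated group and on 3 of 6 in each untreated group. In untreated KO samples the members' means were 7.22, 7.35 and 7.17 on the Xist-high arrays and 7.63, 7.67 and 7.61 on the others. The other groups did not split in this way, and the part of sex in this split was not tested.

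**Figure D4:**
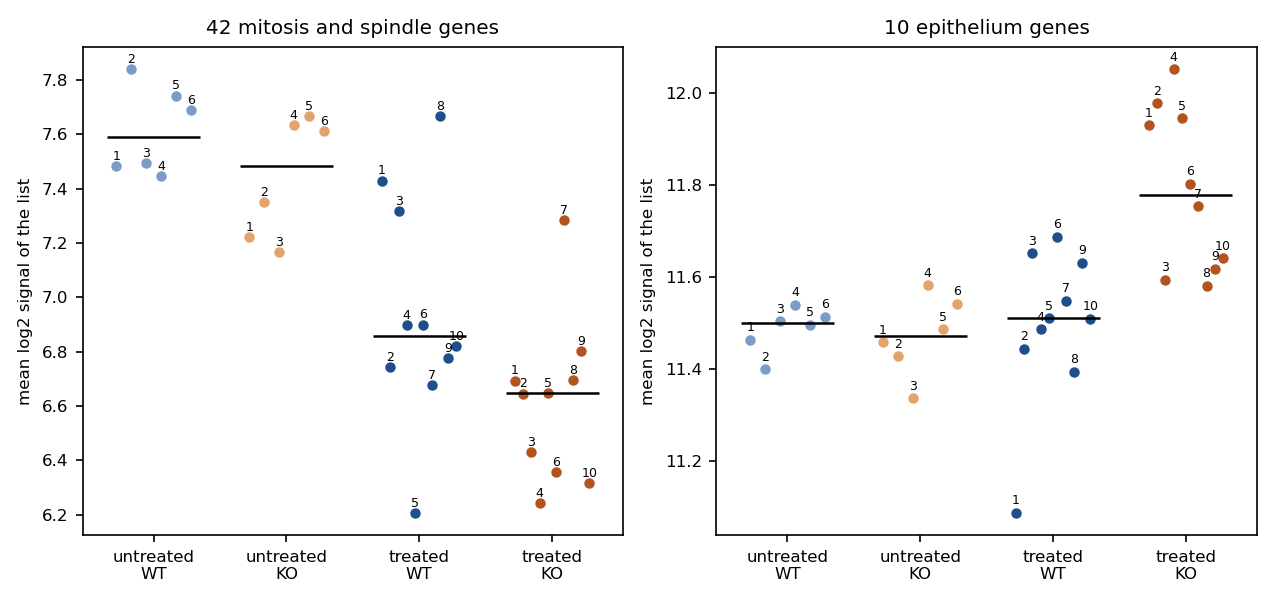
Mean log2 signal of the 42 mitosis and spindle genes (left) and of 10 epithelium genes (right) on each array, by group, with repeat numbers beside the points and the group median as a line. Treated WT arrays span 6.21 to 7.67 for the mitosis genes, and treated KO arrays span 11.58 to 12.05 for the epithelium genes, mostly above the other groups.

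Markers of other cells moved with treatment too. Epithelium genes, such as the adhesion protein Epcam and the transcription factor Cdx2, rose in 8 of 10 cases in KO mice (median 0.27) and in 0 of 10 in WT mice (median 0.03), where 8.7% and 0.599% of all genes rose. In treated KO against treated WT mice 5 of 10 were higher, where 6.24% of all genes were. Their summed linear signal ranged from 43873 to 45785 in untreated WT, from 41855 to 45369 in untreated KO, from 36040 to 50611 in treated WT and from 46781 to 61535 in treated KO samples. With the mean of this list as a covariate 18 of 42 members fell in KO mice at a median of -0.66, and 22 of 42 fell in WT mice at -0.71. B and plasma cell genes fell in 3 of 6 cases in each genotype, where 1.24% of all genes fell in WT and 10.1% in KO mice, with medians of -0.73 in WT and -1.13 in KO mice. Their summed signal was 3792 to 6571 in untreated WT, 2269 to 5384 in untreated KO, 1203 to 3982 in treated WT and 505 to 1377 in treated KO samples, and their part in the result was not tested.

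Squamous epithelium genes, which mark skin-like lining near the anus, were uneven between arrays. In WT mice 1 of 11 rose (Krt14, at a list median of 2.14) and in KO mice 0 of 11, where 0.599% and 8.7% of all genes rose. Their summed signal ran from 328 to 1642 in untreated WT, from 320 to 8427 in untreated KO, from 423 to 63282 in treated WT and from 416 to 6667 in treated KO samples. Skeletal muscle genes were called in 0 of 8 cases in both responses, with sums of 349 to 7541, 319 to 3341, 424 to 11723 and 521 to 9686 in the same order. With both list means as covariates 9 of 42 members fell in WT and 36 in KO mice, at medians of -0.76 and -0.91. Smooth muscle genes were called in 0 of 10 cases in both responses, with sums of 28510 to 43790, 27447 to 36019, 30815 to 53150 and 21100 to 54922, and with their mean as a covariate 7 of 42 members fell in WT and 30 in KO mice. Macrophage and neutrophil genes were called higher in 0 of 7 cases in WT (median 0.79) and 1 of 7 in KO mice (0.52). All 7 had positive differences in WT mice, the smallest 0.17. T cell genes were called higher in 0 and 1 of 5 cases, and fibroblast and endothelium genes in 0 and 3 of 8. Of all genes 0.599% were called higher in WT and 8.7% in KO mice. The part of these last lists was not tested. The 3' minus 5' signal of control probe sets, a sign of RNA integrity, lay between -0.0125 and 0.0395 in untreated WT and between -0.055 and 0.0365 in treated WT samples. It lay between -0.0655 and 0.041 in untreated KO and between -0.097 and 0.0365 in treated KO samples. With it as a covariate 6 of 42 members fell in WT mice and 33 in KO mice, at medians of -0.69 and -0.83.

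**Figure D5:**
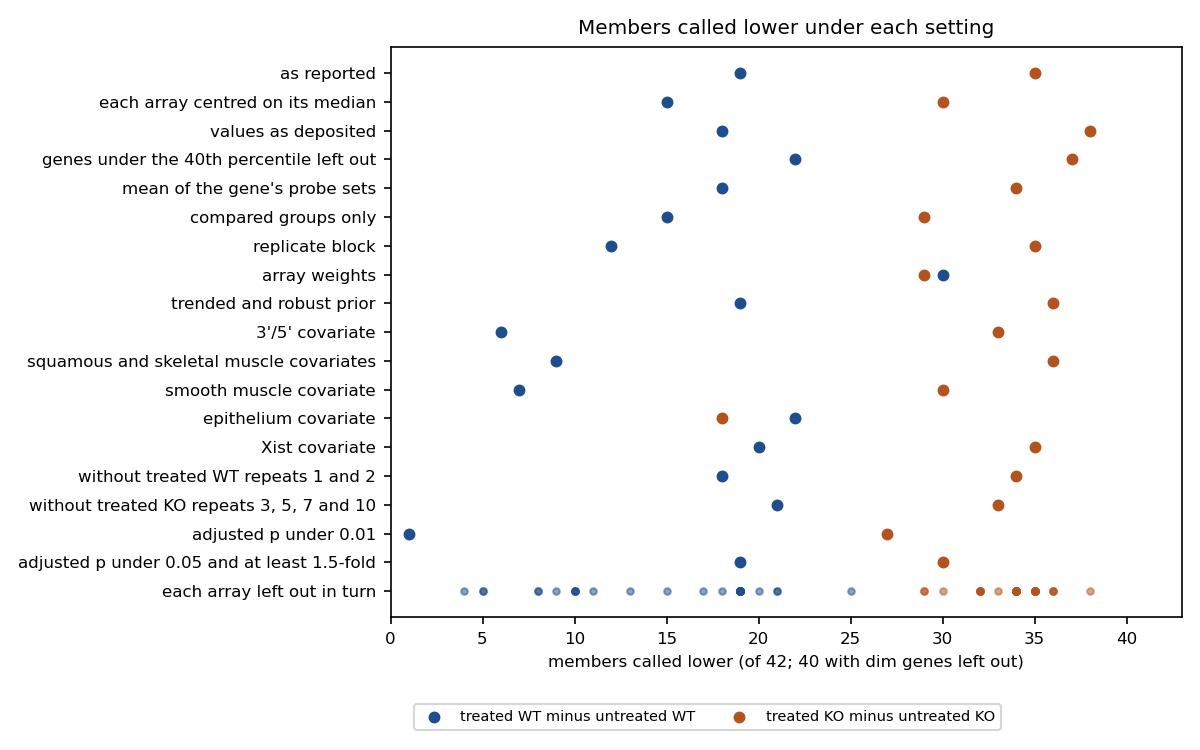
Number of members called lower after treatment (horizontal axis) in WT (blue) and KO (brown) mice, as reported and under each alternative (rows), with 1 point per array left out in the bottom row. The WT count runs from 1 to 30 and the KO count from 18 to 38.

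Of 111 other measured genes of mitosis 15 fell and 0 rose in WT mice, where 1.24% of all genes fell. In KO mice 38 fell and 0 rose, where 10.1% of all genes fell, and the medians were -0.27 and -0.32. Whether they differ from the members was not tested. Other mitotic regulators fell in 4 of 21 cases in WT and 5 of 21 in KO mice, among them Wee1, the kinase that restrains Cdk1 (-0.95 ± 0.16 and -0.96 ± 0.16). The phosphatase Cdc25c, which activates Cdk1, was at -0.75 ± 0.21 and -0.97 ± 0.21, and Cks1b at -0.23 ± 0.18 and -0.10 ± 0.18. Other kinetochore and checkpoint genes fell in 2 and 5 of 31 cases, with Cenpp at -1.32 ± 0.29 and -1.57 ± 0.29, Spc24 at -0.77 ± 0.24 and -1.14 ± 0.24, and Zwint at 0.16 ± 0.08 and 0.08 ± 0.08. Other spindle and cytokinesis genes fell in 6 and 11 of 28 cases. Psrc1 was at -0.995 ± 0.27 and -1.50 ± 0.27, Ckap2 at -0.72 ± 0.20 and -1.30 ± 0.20, and Numa1, a protein of spindle poles that is also found in resting nuclei, at -0.00 ± 0.10 and -0.17 ± 0.10. Wee1, Cenpp and Psrc1 fell in both genotypes, Cdc25c, Spc24 and Ckap2 in KO mice alone by the threshold, and Cks1b, Zwint and Numa1 in neither.

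Condensin and cohesin genes, which fold chromosomes and hold sister chromatids, fell in 3 of 16 cases in WT and in 10 of 16 in KO mice. Of all genes 1.24% fell in WT and 10.1% in KO mice. The condensin genes Smc4 (-0.33 ± 0.08 and -0.53 ± 0.08) and Ncapd2 (-0.65 ± 0.18 and -0.95 ± 0.18) were called, Smc4 in both genotypes and Ncapd2 in KO mice. The cohesin gene Rad21 was not (-0.17 ± 0.09 and -0.12 ± 0.09). In treated KO against treated WT mice 7 of the 16 were called lower, where 6.58% of all genes were. Of 15 other genes of the anaphase promoting complex 0 fell in WT and 7 in KO mice, at medians of -0.06 and -0.05. Ube2s, the enzyme that extends ubiquitin chains on its targets, was at -0.37 ± 0.10 and -0.60 ± 0.10, Anapc13 at -0.16 ± 0.06 and -0.34 ± 0.06, and Anapc4 at 0.03 ± 0.06 and -0.05 ± 0.06. Inhibitors of cyclin-dependent kinases and genes of cell cycle exit were called in 0 of 14 cases in WT and in 1 of 14 in KO mice, where 10.1% of all genes fell. The 1 was Cdkn1b (p27), which fell by 0.37 ± 0.12. Btg1, an antiproliferative gene, was at -0.06 ± 0.10 and -0.13 ± 0.10. None of the 14 was called higher in either response.

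Different probe sets of a member did not always give the same value. The 42 members had 96 probe sets, and 29 members had more than 1. Taken one at a time, 17 of 96 fell in WT and 58 of 96 in KO mice, and 0 rose. Of all 34945 probe sets, 406 in WT and 5534 in KO mice were called in either direction. Differences were negative for 86 of 96 in WT and 87 of 96 in KO mice. For Kif22 the probe sets lay between mean signals of 4.89 and 8.39, and all 3 fell in KO mice, by differences between -1.19 and -0.95. The 5 probe sets of Hmmr all fell in KO mice, between -1.08 and -0.71. Those of Bub3, between mean signals of 4.11 and 9.67, spread from -0.54 to 0.10 in KO mice with 1 of 5 called. Also in KO mice, the probe sets of Anln ran from -0.63 to 0.22, with 1 of 2 called. Those of Kif23 ran from -0.40 to 0.16, with 1 of 3 called, and of Cenpe 0 of 2 were called. Racgap1, Top2a and Incenp each had a probe set on the floor of 3.322 on average, where no change can be seen. Averaging the probe sets of each gene gave medians of -0.62 in WT and -0.67 in KO mice.

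The promoters are shown because most members moved together and late cell cycle genes are known to share promoter elements, the cell cycle homology region and the CCAAT box bound by NF-Y. Promoters of 300 bases, 250 before and 50 after the start of the gene, came from RefSeq (build GRCm38.p6), where 38 of the 43 members had 41 promoters. The letters TTTGAA (the core of the cell cycle homology region) and CCAAT were searched on both strands. Both can share letters, which happened in 1 member promoter, that of Cdca8. TTTGAA was in 73.2% of the members' promoters against 13.4% of 18109 promoters of all genes measured, and within 50 bases of the start in 68.3% against 3.42%. CCAAT was in 78% against 37.4%, and 2 or more copies in 58.5% against 12.8%. Both motifs were in 65.9% against 5.23%. Of the members called lower in KO mice 71.9% of promoters had TTTGAA. Of those measured and not called 87.5% had it, or 7 of 8 promoters from 6 genes, with overlapping promoters of Ect2 and of Prc1 counted separately. Among these few genes the motif did not part called from uncalled members. The promoters of Ccnb2 (chr9:70421505-70421804, minus strand), Cdk1 (chr10:69352863-69353162, minus strand), Plk1 (chr7:122159185-122159484, plus strand) and Anapc2 (chr2:25272216-25272515, plus strand) follow from 5′ to 3′, with both motifs in capitals (ATTGG is CCAAT read on the other strand):
Ccnb2: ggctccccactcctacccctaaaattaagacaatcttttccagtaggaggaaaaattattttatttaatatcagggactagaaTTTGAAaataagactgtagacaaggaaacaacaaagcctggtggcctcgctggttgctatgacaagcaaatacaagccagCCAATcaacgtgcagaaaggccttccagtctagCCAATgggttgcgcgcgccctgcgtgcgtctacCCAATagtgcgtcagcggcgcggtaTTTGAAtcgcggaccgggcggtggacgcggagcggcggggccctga
Cdk1: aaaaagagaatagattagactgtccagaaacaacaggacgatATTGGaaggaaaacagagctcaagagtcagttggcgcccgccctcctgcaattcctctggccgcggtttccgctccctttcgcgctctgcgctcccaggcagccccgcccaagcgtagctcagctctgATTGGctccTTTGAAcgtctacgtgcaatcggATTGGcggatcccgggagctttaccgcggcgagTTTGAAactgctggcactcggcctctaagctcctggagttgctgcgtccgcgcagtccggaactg
Plk1: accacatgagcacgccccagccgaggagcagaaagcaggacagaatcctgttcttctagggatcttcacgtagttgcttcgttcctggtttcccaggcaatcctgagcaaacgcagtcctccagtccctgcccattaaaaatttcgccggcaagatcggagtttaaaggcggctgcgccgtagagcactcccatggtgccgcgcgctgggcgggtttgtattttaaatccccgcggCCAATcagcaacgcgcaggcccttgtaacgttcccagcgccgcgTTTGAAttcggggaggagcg
Anapc2: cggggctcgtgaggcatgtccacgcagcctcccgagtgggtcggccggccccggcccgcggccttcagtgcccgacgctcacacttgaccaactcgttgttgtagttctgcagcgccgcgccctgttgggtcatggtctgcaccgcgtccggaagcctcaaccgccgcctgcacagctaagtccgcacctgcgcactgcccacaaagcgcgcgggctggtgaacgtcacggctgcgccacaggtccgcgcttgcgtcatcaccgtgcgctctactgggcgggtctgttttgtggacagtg
Ccnb2 and Cdk1, which fell in both genotypes, hold 3 CCAAT boxes and 2 TTTGAA each, and Plk1 holds 1 of each close together. Anapc2, whose call for a difference of the responses was kept in 12 of 45 alternative fits, holds neither, and neither does Pttg1. The motifs are also absent from these windows of Birc5, Mad2l1, Nuf2 and Nusap1, so 6 members in all had neither, and Birc5, Mad2l1 and Nusap1 fell in both genotypes. A match is a stretch of letters and not a measured binding site.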

How the data were processed

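RNA of 32 distal colon samples was measured on Affymetrix arrays, which read a gene as 1 or more probe sets. The authors deposited log2 signals for 45101 probe sets, and the summarising software is not given in the sources used here. Tested on the values, each array had been scaled by the authors to a 2% trimmed mean of 150.9 to 151.3, with signals under 10 raised to that floor (3.322 on the log2 scale). The floor held 18.7% to 23.9% of an array's probe sets and makes differences of dim genes too small.

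Control probe sets (64) and those with several symbols (932) or no symbol (9211) were left out. The values were quantile normalized, and limma 3.58.1 (R 4.3.3) fitted 4 group means over all arrays, 28 residual and 1.10 prior degrees of freedom and 5 two-sided contrasts with Benjamini-Hochberg adjustment. Symbols came from the platform annotation and a RefSeq gene table. The members and all gene lists were chosen with earlier results of these data known. Full values are given for up to 3 called members per role with the lowest adjusted p, plus each role's uncalled member of highest mean signal, and other members by their differences. On simulated data with 18193 genes the fit recovered between 87% and 95% of genes changed 2-fold, and false calls made up 2.07% to 5.64%. The simulated noise was independent between genes and had the same spread in every group, and only brighter genes were changed. In the real arrays the members moved together and treated WT samples spread most, so these rates need not hold for the calls given here. The number of mice per group limits the precision. Alternatives were median centring, the values as deposited, a filter on dim genes, averaged probe sets, the compared groups only, a replicate block, array weights, another prior, covariates and each array left out. Testing each probe set, and leaving out the treated KO arrays with Myd88 in the WT range, were added after the data were seen. Neither is among the 46 alternative fits counted for each member.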

Additional observations from a re-analysis of the deposited data

Results flagged for a closer look

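In 10 of 168 tests, of 42 members in 4 groups, a single array stood far from the rest of its group, and chance flags about 1 group in 20. Treated KO repeat 7 was the highest array in 5 of these: Birc5 at 7.562 (nearest array 6.937), Cenpa at 7.014 (6.421), Tpx2 at 6.508 (5.740), Racgap1 at 6.929 (6.426) and Cdc20 at 8.749 (8.084). The others were low arrays. In treated KO mice these were Bub1b on repeat 5 at 3.415 (4.736) and Nuf2 on repeat 4 at 3.322, the floor (5.339). In untreated WT mice they were Cks2 on repeat 4 at 9.304 (9.625), Cenpe on repeat 3 at 5.695 (6.117) and Ndc80 on repeat 3 at 3.959 (5.015).

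The response of Anapc2 differed between the genotypes by -0.355 (adjusted p = 0.0478 by limma), the only member for which the difference of the responses passed. That call was kept in 12 of 45 alternative fits.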

How the results depend on the processing

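The members' medians kept their sign throughout and moved by less than the spread between replicates (0.317), but some moved by over 1.5 times. That spread is larger than the untreated KO minus WT median and that of the difference of the responses. For these medians it is therefore a weak check. The untreated KO minus WT median ran from -0.209 to -0.0834 with an array left out, the treated KO minus WT median fell in size to -0.181 with the epithelium covariate, and that of the difference of the responses ran from -0.214 to -0.0583 with an array left out and was -0.0483 with the epithelium covariate. For the WT response 19 members became 30 with array weights, 7 with the smooth muscle covariate, 6 with the 3'/5' difference, 9 with squamous epithelium and skeletal muscle means, 1 at an adjusted p under 0.01 and 4 to 25 with an array left out. For the KO response 35 became 18 with the epithelium covariate. Shares over all genes were not counted in these alternatives, so whether the members changed more than other genes is not shown. For treated KO against treated WT 6 became 3 with median centring, 11 with the values as deposited, 10 with the smooth muscle covariate, 1 with the epithelium covariate, 2 at 1.5-fold or more and 4 to 13 with an array left out. The interaction's 1 call became 0 with median centring, the values as deposited, dim genes left out, the replicate block, the trended and robust prior, the epithelium or Xist covariate, treated WT repeats 1 and 2 or treated KO repeats 3, 5, 7 and 10 left out and both stricter thresholds, and 0 to 1 with an array left out.

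Anapc2 in WT mice, never called, changed sign from -0.01 to 0.0157 with the replicate block, 0.0181 with the 3'/5' difference, 0.00799 with array weights, 0.00641 with the smooth muscle covariate and 0.0300 with squamous epithelium and skeletal muscle means, and ran from -0.0301 to 0.0120 with an array left out. Incenp in KO mice changed sign to 0.11 with the epithelium covariate. The cause of these changes was not tested.

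Repeat numbers did not pair the samples: correlations of same-numbered samples lay between -0.166 and 0.343. With the replicate block 12 members were called in WT and 35 in KO mice. Dim members near the floor (Ndc80, Ttk) are limited by it. Of Nuf2 only the value on treated KO repeat 4 was on the floor.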
